A study of Mus musculus with 9 samples.

Results

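The genes described here are the position genes of the Hox family and their partners of the TALE class, chosen by name as all Hox genes of clusters A to D and the genes of the Meis, Pbx and Pknox families. Of the 17187 genes in the table, 35 met this rule. They comprise 26 Hox genes, from 10 paralogue groups and 4 clusters, and 9 TALE genes. RNA was measured in 9 poly(A) libraries of mouse medullary brainstem, from punches that held the raphe nuclei. All mice had the genotype wt, and their strain, sex and age are not stated. The punches were taken 3 weeks after an adeno-associated virus had been injected into the cortex. The labels of these libraries name no injury, and whether the mice had one is not stated. Treatment was AAV2-GFP in 4 libraries, called GFP libraries 1 to 4, and AAV2-HIL6-GFP in 5 libraries, called HIL6 libraries 1 to 5. The design text names the second virus AAV2-hIL-6, where hIL-6 stands for hyper-interleukin-6, a fusion of interleukin-6 with its soluble receptor. Batch 1 held 3 GFP and 3 HIL6 libraries and batch 2 held 1 GFP and 2 HIL6 libraries (GFP library 4 and HIL6 libraries 4 and 5). Neither the source animal of a library nor the meaning of batch is stated in the labels, so a p-value here reflects library-to-library spread, which may be technical.

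Hox genes encode homeodomain transcription factors that lie in clusters, and in each cluster the order of the genes along the chromosome follows the order of their expression along the head-to-tail axis. Genes with the same number in different clusters are paralogues and form a paralogue group. Low-numbered groups are active up to the rostral hindbrain, higher-numbered ones begin in the caudal hindbrain and spinal cord, and part of this code is kept in adult neurons. Meis, Pbx and Pknox proteins are homeodomain factors with an extended loop of amino acids, which gives the TALE class its name. They bind DNA together with Hox proteins and raise their selectivity for target sites.

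The promoter windows of a few members are shown because they hold, or lack, the sites to which such complexes are known to bind. Each window is the 250 bases upstream of the RefSeq transcription start, 5′ to 3′ on the strand of the gene, in build GRCm38.p6, with motif matches in capitals. Hoxb1 (chr11:96365508-96365757, plus strand) and Hoxa2 (chr6:52164832-52165081, minus strand) pattern the embryonic hindbrain and are shown for their motif matches. Hoxd1 (chr2:74762730-74762979, plus strand) and Hoxa5 (chr6:52204588-52204837, minus strand) are shown because, of the genes tested below, their levels had the widest ranges over the libraries on the log2(FPKM + 0.5) scale. Hoxd1 is known from sensory neurons and Hoxa5 from breathing and from motor neurons of the neck.
Hoxb1: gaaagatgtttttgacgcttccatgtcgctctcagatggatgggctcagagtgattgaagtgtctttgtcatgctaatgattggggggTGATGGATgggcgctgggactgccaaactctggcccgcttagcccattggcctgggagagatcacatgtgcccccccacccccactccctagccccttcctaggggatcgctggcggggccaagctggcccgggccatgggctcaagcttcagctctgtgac
Hoxa2: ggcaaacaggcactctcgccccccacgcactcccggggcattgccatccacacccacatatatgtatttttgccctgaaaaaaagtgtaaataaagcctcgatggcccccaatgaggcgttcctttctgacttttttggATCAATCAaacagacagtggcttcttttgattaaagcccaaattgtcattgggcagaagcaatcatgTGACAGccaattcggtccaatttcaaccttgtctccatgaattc
Hoxd1: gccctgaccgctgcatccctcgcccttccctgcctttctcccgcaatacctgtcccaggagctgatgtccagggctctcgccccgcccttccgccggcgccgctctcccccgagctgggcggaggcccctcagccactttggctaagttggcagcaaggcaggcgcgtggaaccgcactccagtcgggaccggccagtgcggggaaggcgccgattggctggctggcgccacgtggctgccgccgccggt
Hoxa5: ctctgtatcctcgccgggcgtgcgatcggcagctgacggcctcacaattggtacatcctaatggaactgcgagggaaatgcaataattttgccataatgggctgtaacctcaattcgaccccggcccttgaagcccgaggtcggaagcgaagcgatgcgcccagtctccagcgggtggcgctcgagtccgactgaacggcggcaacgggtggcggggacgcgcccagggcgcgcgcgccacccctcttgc
The Hoxb1 window held 1 match of TGATNNAT, the letters of a joint Pbx and Hox site, and the Hoxa2 window held 1 match of it and 1 of TGACAG, the letters of a Meis and Pknox site. Windows were found for 20 of the 35 members, 15 of them Hox genes, and both strands were searched. TGATNNAT stood in 3 of the 15 Hox windows (Hoxa2, Hoxb1 and Hoxb8) and in 7.68% of the 32851 windows of all genes. TGACAG stood in 2 Hox windows (Hoxa2 and Hoxa3) and in 15.9% of all windows. TAATTA, the core of many homeodomain sites, stood in none of the 20 member windows and in 4.84% of all windows. The windows of Hoxd1 and Hoxa5 held none of the 3 motifs.

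Levels are in FPKM, which scales fragments to transcript length and library size, so they can be set side by side between genes of different length. Depth, read from the steps between low values, was 31485000 to 46260000 scaled fragments, with 97.0% to 98.7% of the low values whole within a tolerance of 0.05. Several libraries stood apart in these genes. GFP library 4 held the lowest level of 7 of the 8 Hox genes of groups 4 to 6 that are tested below. HIL6 library 1 held the lowest levels of Hoxd1, Hoxd3 and Hoxd4, and HIL6 library 4 held the highest levels of several genes of groups 5 to 7. Results that rest on these libraries are given with and without them. In bulk tissue, fewer cells of a type and less RNA per cell cannot be told apart.

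The punches held Hox paralogue groups 1 to 5 at readily measured levels and groups 6 to 13 at low levels. The summed level was highest in group 3, at 30.9 FPKM ± 4.87 (SD, n = 9) or 32.9% of all Hox FPKM, and group 4 was next at 28.4 FPKM ± 5.28 and 29.8%. Group 5 held 18.8 FPKM ± 8.20 (18.9%), group 2 held 10.1 FPKM ± 1.24 (10.8%) and group 1 held 4.67 FPKM ± 1.80 (4.88%). Groups 3 and 4 differed by less than the spread of the libraries. Group 5 ran from 4.64 FPKM in GFP library 4, where it was below groups 1 and 2, to 32.4 FPKM in HIL6 library 4, where it was above groups 3 and 4. Group 6 held 1.72 FPKM ± 1.38 (1.66%), below group 5 in every library. Groups 7, 8, 9 and 13 held 0.350, 0.588, 0.0723 and 0.0747 FPKM on average, and group 13 was listed at 0 in GFP library 3.

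**Figure D1:**
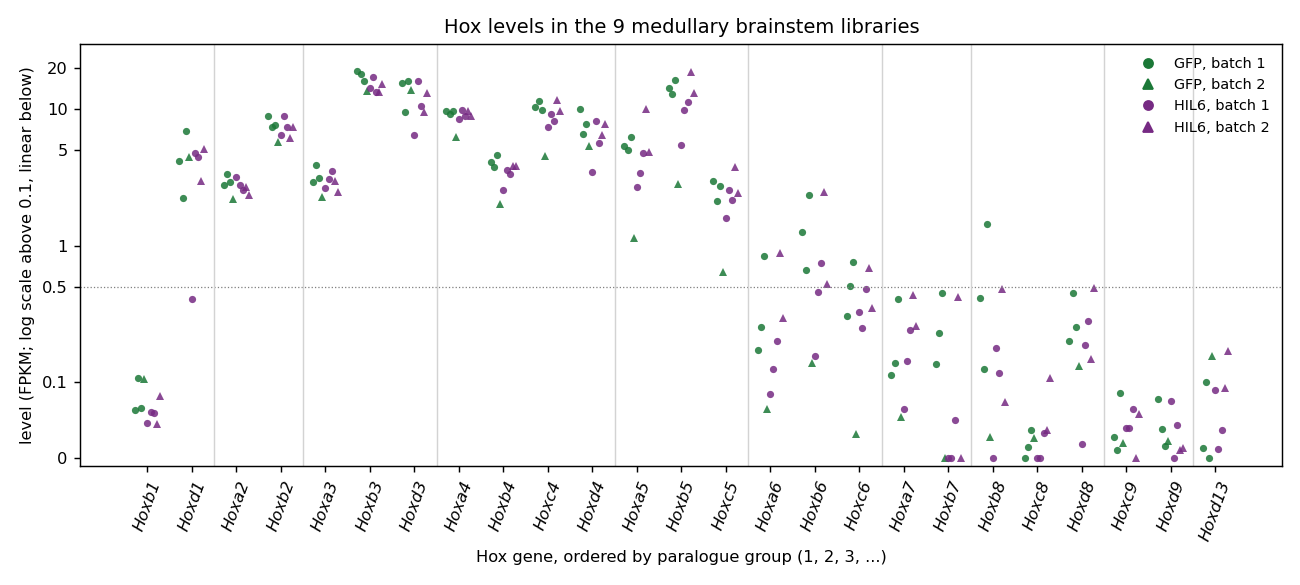
FPKM (log scale above 0.1, linear below) of 25 Hox genes in every library, ordered by paralogue group and marked by treatment and batch, with the limit of 0.5 FPKM dotted. Levels were highest in groups 3 to 5 and lay below 1 FPKM from group 7 on, except Hoxb8 in GFP library 3, and the spread between libraries was wide in group 5 and in Hoxd1.

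Each paralogue group had a leading gene. Hoxb3, a factor of the caudal hindbrain, had the highest mean of all Hox genes at 15.6 FPKM ± 2.18 (n = 9), followed by Hoxd3 at 12.3 ± 3.42, Hoxb5 at 11.6 ± 4.99, Hoxc4 at 9.14 ± 2.21 and Hoxa4 at 8.97 ± 1.13 FPKM. Each of these differed from the next by less than the larger SD of the pair. Hoxb2, which acts in the formation of facial motor neurons, led group 2 at 7.35 FPKM ± 1.11, and Hoxd1 led group 1 at 3.95 ± 1.87. Hoxb1, an early hindbrain patterning gene of group 1, stood at 0.0709 FPKM ± 0.0231. Hoxb6 led group 6 at 0.977 FPKM ± 0.884. The leading genes beyond it, Hoxa7, Hoxb8, Hoxc9 and Hoxd13, had means of 0.207, 0.318, 0.0390 and 0.0747 FPKM. Of the clusters, HoxB held 41.3% of Hox FPKM on average, HoxD 24.5%, HoxA 21.8% and HoxC 12.4%.

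By coordinates of GENCODE M21 on GRCm38 (mm10), the HoxA genes from Hoxa2 on span chr6:52162417-52221854, the measured HoxB genes chr11:96281905-96368256, the HoxC genes chr15:102967443-103036852 and the HoxD genes chr2:74668310-74765142. Within the clusters some annotated transcripts overlap on the same strand, so fragments of Hoxa3 cannot be fully parted from those of Hoxa4, Hoxa5 and Hoxa6, those of Hoxc5 from Hoxc6, Hoxc8 and Hoxc9, and those of Hoxd3 from Hoxd4. Antisense genes overlap many members, and whether quantification used the strand is not stated. The levels of these genes are uncertain to that extent.

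Of the 26 Hox genes, 15 had a mean of at least 0.5 FPKM over the 9 libraries and entered the tests, which ran over 13958 genes. Among them were Hoxa2 to Hoxa5, Hoxb2 to Hoxb6, Hoxc4, Hoxc5, Hoxd1, Hoxd3 and Hoxd4. Of the genes named here, Hoxb6 (mean 0.977 FPKM) was the nearest inside this limit and Hoxc6 (0.412 FPKM) the nearest outside it. The 11 Hox genes outside it had means down to 0.0287 FPKM (Hoxc8), and 6 of them were listed at 0 in at least 1 library. Their highest single value was 1.45 FPKM, of Hoxb8 in GFP library 3. At a level of at least 0.5 FPKM, 13 Hox genes were present in every library, from 13 in HIL6 library 1 to 18 in GFP library 3. The low levels of genes outside the limit rest on few fragments. Hoxa6 was backed by 2 fragments in GFP library 4 (0.0651 FPKM) and in HIL6 library 1 (0.0845 FPKM). In HIL6 library 4 (0.890 FPKM) it was backed by 29.

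As a measure of position along the axis, the caudal Hox share was taken as the FPKM of groups 5 to 13 in percent of all Hox FPKM. It was 22.3%, 22.8%, 27.2% and 8.03% in GFP libraries 1 to 4, and 15.8%, 17.0%, 23.0%, 35.3% and 22.9% in HIL6 libraries 1 to 5. GFP library 4 was the lowest and HIL6 library 4 the highest, both of batch 2, and the other 7 libraries lay between 15.8% and 27.2%. The group means were 20.1% ± 8.32 (SD, n = 4) for GFP and 22.8% ± 7.70 (n = 5) for HIL6, so they differed by less than the spread within the groups, and no test was made of this sum over chosen genes. The caudal sum itself ran from 5.32 FPKM in GFP library 4 to 38.1 FPKM in HIL6 library 4, a ratio of 7.17. Without GFP library 4 the lowest was 10.6 FPKM in HIL6 library 1 and the ratio 3.60, and without HIL6 library 4 as well it was 3.01. The sum over groups 1 to 4 ran only from 56.3 FPKM in HIL6 library 1 to 88.2 FPKM in GFP library 1, a ratio of 1.57. Both sums were narrower without GFP library 4, HIL6 library 4 and HIL6 library 1. The caudal sum then ran from 17.3 FPKM in HIL6 library 2 to 31.9 FPKM in GFP library 3. The sum over groups 1 to 4 ran from 68.7 FPKM in HIL6 library 3 to 88.2 FPKM in GFP library 1. The caudal sum thus spread more than that of groups 1 to 4. Group 1 alone ran from 1.14 FPKM in HIL6 library 1 to 7.58 FPKM in GFP library 3. That is a ratio of 6.65, against 6.99 for group 5.

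**Figure D2:**
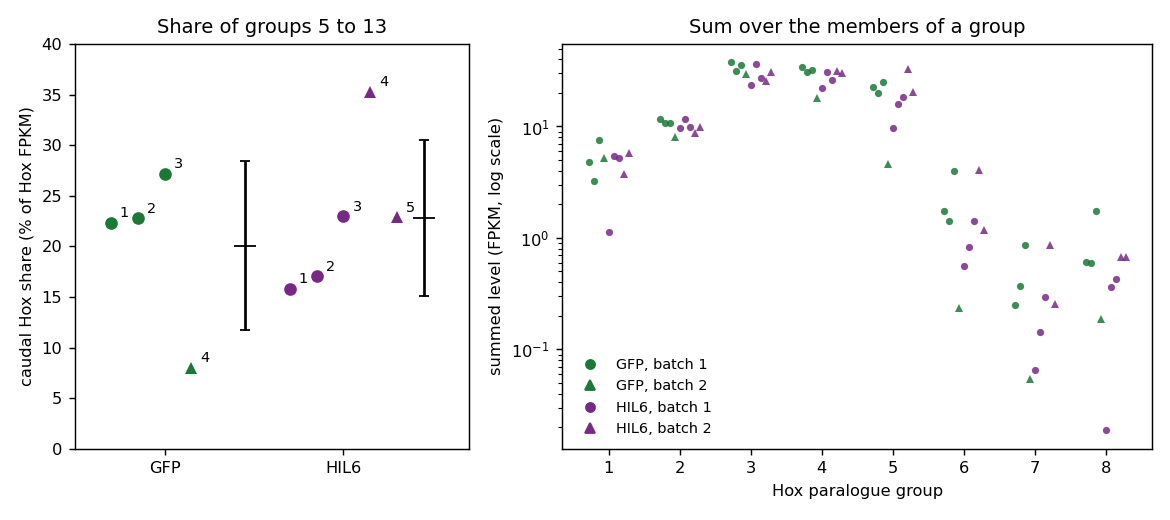
Left, caudal Hox share in percent of Hox FPKM for each library, numbered, with the group mean and SD as bars; right, the summed FPKM (log scale) of paralogue groups 1 to 8 in each library. GFP library 4 (8.03%) and HIL6 library 4 (35.3%) lie at either end and the groups overlap.

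The genes of group 5 carried the spread of the caudal sum. Hoxb5 stood at 14.2, 12.96, 16.3 and 2.86 FPKM in GFP libraries 1 to 4 and at 5.44, 9.91, 11.3, 18.6 and 13.1 FPKM in HIL6 libraries 1 to 5. Hoxa5 had 5.42, 4.99, 6.25 and 1.14 FPKM in the GFP libraries and 2.71, 3.44, 4.76, 10.04 and 4.84 FPKM in the HIL6 libraries. For both genes GFP library 4 was lowest, HIL6 library 1 came next and HIL6 library 4 was highest, and the groups overlapped. The Hoxa5 values rest on 86 fragments in GFP library 4 and 793 in HIL6 library 4, by the depth read here. The overlap of Hoxa5 with Hoxa3 limits these numbers, and no count test was run. Hoxc5, which acts with Hoxa5 in neck motor neurons, stood at 2.99, 2.14, 2.75 and 0.641 FPKM in the GFP libraries and at 1.60, 2.56, 2.16, 3.80 and 2.43 FPKM in the HIL6 libraries. It had the same 3 libraries at its extremes. Hoxb6 stood at 1.27, 0.668, 2.35 and 0.138 FPKM in the GFP libraries and at 0.155, 0.460, 0.745, 2.49 and 0.522 FPKM in the HIL6 libraries, again lowest in GFP library 4 and highest in HIL6 library 4.

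Group 4, whose genes have their rostral limit within the caudal hindbrain, showed the same libraries at the low end with smaller ranges. Hoxc4 stood at 10.4, 11.4, 9.81 and 4.51 FPKM in the GFP libraries and at 7.46, 9.16, 8.14, 11.7 and 9.68 FPKM in the HIL6 libraries. GFP library 4 was well below all others, and HIL6 library 4 was highest by a small margin. Hoxb4 ran from 2.03 FPKM in GFP library 4 to 4.60 in GFP library 3. Hoxa4 ran from 6.21 FPKM in GFP library 4 to 9.85 in HIL6 library 2, with the other 8 libraries at 8.52 FPKM or more.

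The rostral genes outside cluster D were steadier. Hoxb3 stood at 19.1, 18.2, 16.2 and 13.6 FPKM in the GFP libraries and at 14.4, 17.2, 13.3, 13.3 and 15.3 FPKM in the HIL6 libraries, a ratio of 1.44 between the highest and the lowest. Hoxb2 ran from 5.77 to 8.96 FPKM, Hoxa2 from 2.19 to 3.35 FPKM and Hoxa3 from 2.28 to 3.89 FPKM, each lowest in GFP library 4. On the log2(FPKM + 0.5) scale, the range over the libraries was at least 1 for 9 of the 15 tested Hox genes, against 10.3% of all tested genes. The median range was 1.25 for these Hox genes and 0.49 for all genes. In groups 4 to 6 this held for 7 of 8 genes, the exception being Hoxa4, and in groups 1 to 3 for 2 of 7, Hoxd1 and Hoxd3. GFP library 4 held the lowest of the 9 values for 10 of the 15 Hox genes, against 15.2% of all genes, and HIL6 library 4 the highest for 5, against 11.3%. The count of wide ranges rests on few libraries. It was 7 of 15 without GFP library 4 and 7 of 15 without HIL6 library 1. With both left out it was 3 of 15 (Hoxa5, Hoxb6 and Hoxd1), against 7.72% of all genes, and the median range of the Hox genes was then 0.56, against 0.44 for all genes.

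Cluster D followed another order of libraries. Hoxd1 stood at 4.20, 2.25, 6.96 and 4.47 FPKM in GFP libraries 1 to 4 and at 0.405, 4.74, 4.48, 2.97 and 5.10 FPKM in HIL6 libraries 1 to 5. HIL6 library 1 was lowest, with 23 fragments against 148 to 372 in the others, and GFP library 4 lay in the middle. Hoxd3 stood at 15.5, 9.53, 16.2 and 13.7 FPKM in the GFP libraries and at 6.50, 15.9, 10.6, 9.48 and 13.04 FPKM in the HIL6 libraries, with the same library lowest. Hoxd4 was also lowest there, at 3.45 FPKM, and highest in GFP library 1, at 10.03 FPKM. HIL6 library 1 was the lowest library for these 3 of the 15 Hox genes, against 11.4% of all genes. The share of HoxD in all Hox FPKM ran from 15.7% in HIL6 library 1 to 36.1% in GFP library 4.

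**Figure D3:**
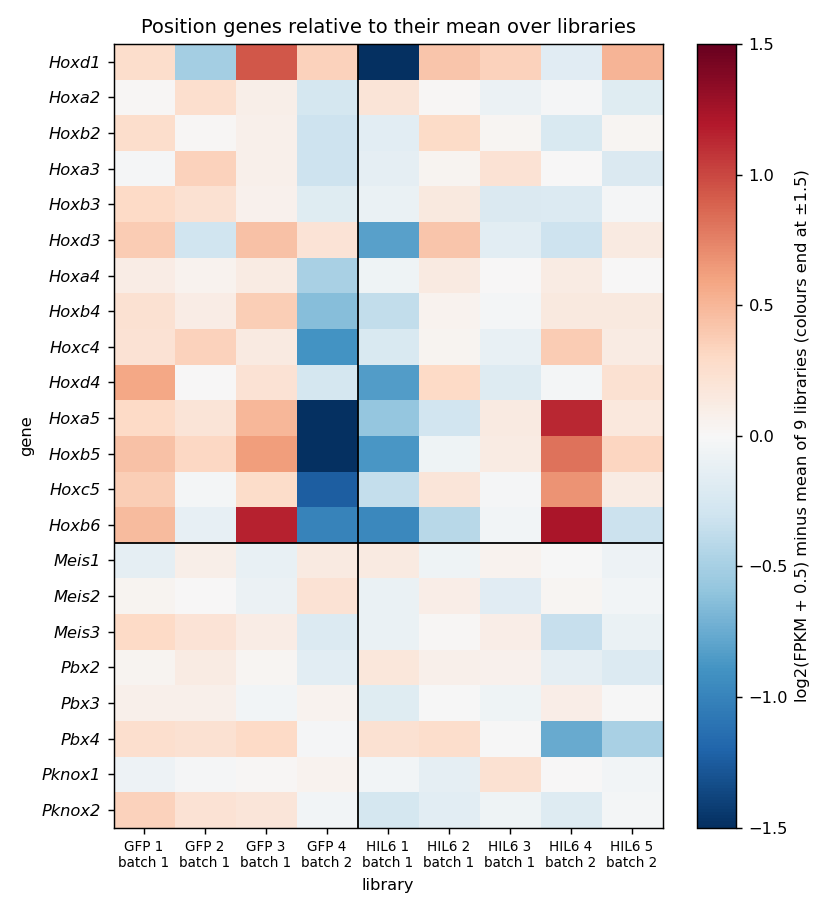
Level of 22 tested members in each library as log2(FPKM + 0.5) minus the mean of the gene over the 9 libraries, with rows grouped by paralogue group and family. GFP library 4 is low across groups 4 to 6, HIL6 library 4 is high in groups 5 and 6, HIL6 library 1 is low in Hoxd1, Hoxd3 and Hoxd4, and most TALE genes vary little.

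Markers of cell groups in or next to the punch differed between the same libraries. The summed FPKM of 10 cranial motor neuron genes was 78.4, 100.1, 70.5 and 19.8 in GFP libraries 1 to 4 and 18.8, 54.6, 23.7, 87.0 and 51.5 in HIL6 libraries 1 to 5, and 2 of the 10 genes were listed at 0 in a library. Chat, the enzyme that makes acetylcholine, stood at 4.96, 6.95, 4.92 and 0.463 FPKM in the GFP libraries and at 0.866, 3.13, 1.18, 7.61 and 3.96 FPKM in the HIL6 libraries. GFP library 4 and HIL6 library 1, the lowest pair of libraries for Hoxa5 and Hoxb5, were also the lowest for Chat, and HIL6 library 4 was the highest. Slc5a7 had the same extremes as Chat, but other genes of the list did not. Slc18a3 and Calca were lowest in GFP library 4 and HIL6 library 3 and highest in GFP library 2. The motor neuron sum was also highest in GFP library 2. HIL6 library 3 was low in that sum (23.7 FPKM), with a caudal Hox share of 23.0%. The sum of 8 serotonergic genes, all detected in every library, was 85.4 to 175.7 FPKM in the GFP and 55.1 to 151.5 FPKM in the HIL6 libraries. Tph2, the enzyme of serotonin synthesis in the brain, was lowest in HIL6 library 1 (11.9 FPKM) and GFP library 2 (21.7 FPKM) and stood at 29.8 to 50.0 FPKM in the others. Those were also the lowest libraries for Hoxd1. The sum of 9 cerebellar and precerebellar genes was 15.3 to 53.4 FPKM in the GFP and 25.4 to 129.0 FPKM in the HIL6 libraries. Slc17a7, the vesicular glutamate transporter of pontine and other precerebellar neurons, was highest in HIL6 library 1 (97.3 FPKM) and GFP library 2 (39.2 FPKM). Gabra6, which defines cerebellar granule cells, stayed at or below 0.115 FPKM in all libraries. Cbln3, of the same list, stood at 0.322 to 0.686 FPKM. Pcp2, also of this list, stood at 3.16 FPKM in GFP library 3 and 1.20 FPKM in GFP library 2. It stayed at or below 0.585 FPKM in the others. Whether the punches held cerebellar tissue was not tested. The part of these cell groups in the Hox levels was not tested.

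**Figure D4:**
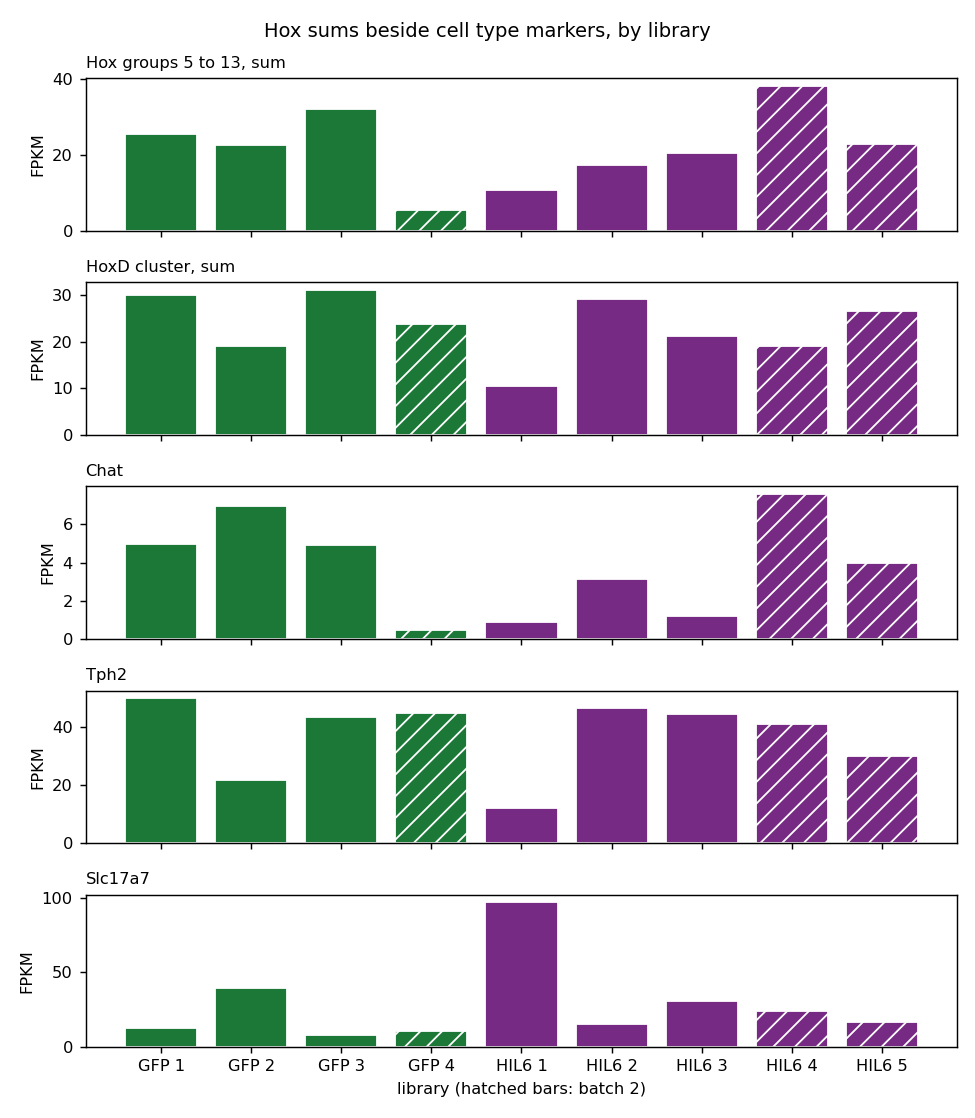
FPKM in each library (bars, hatched for batch 2) of the caudal Hox sum, the HoxD sum and the marker genes Chat, Tph2 and Slc17a7, 1 panel each. Chat and the caudal Hox sum are lowest in GFP library 4 and HIL6 library 1 and highest in HIL6 library 4, while the HoxD sum and Tph2 are lowest and Slc17a7 is highest in HIL6 library 1.

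Genes of more rostral parts of the brain ran from near 0 to the level of some Hox genes. Otx2, a factor of forebrain and midbrain, stood at 0 to 0.224 FPKM. En1 and En2, which mark the border of midbrain and hindbrain, stood at 1.77 to 2.80 and 0.533 to 0.945 FPKM. The mean of En1 was 2.43 FPKM, near that of Hoxc5 (2.34 FPKM). The 9 measured genes of this list, out of 13, summed to 4.76 to 7.10 FPKM in the GFP and 4.55 to 9.53 FPKM in the HIL6 libraries, and 2 of them were listed at 0 in a library. In all 9 libraries, labelled as medullary, Hox groups 1 to 5 and En1 were thus present and Otx2 was near 0.

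The Hox partners of the TALE class were all measured in every library. Meis2 had by far the highest level, at 91.9 FPKM ± 7.59 (n = 9), followed by Pbx2 at 23.8 ± 2.20, Meis3 at 23.3 ± 3.34 and Pbx3 at 21.4 ± 1.36 FPKM. Pbx2 and Meis3 differed by less than their SDs, and Meis3 and Pbx3 by less than the SD of Meis3. Meis1 stood at 9.04 FPKM ± 0.692. Pbx4 stood at 6.61 FPKM ± 1.60, Pknox2 at 5.32 ± 0.855 and Pknox1 at 4.35 ± 0.361. The range over the libraries was at least 1 on the log2 scale for 1 of the 9 genes, Pbx4, and their median range was 0.39. Unlike the Hox genes of groups 4 to 6, Meis2 was highest in GFP library 4 (107 FPKM) and lowest in HIL6 library 3 (81.4 FPKM), and Meis1 was highest in the pair of libraries that were lowest in Hoxa5 (9.92 FPKM in both). Pbx2 overlaps Gpsm3 on its strand, so its level is uncertain to that extent.

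The design asks whether 3 weeks of cortical HIL6 changed the RNA of the medullary brainstem. No position gene passed an adjusted p of 0.05 in the comparison of HIL6 with GFP by limma with batch as a term, and neither did any of the 13958 genes (0%). The smallest adjusted p among the members was 0.999. At an unadjusted p under 0.05 there was 1 member, Pknox2, against 3.89% of all genes. For the 15 Hox genes the log2 fold changes ran from -0.52 (Hoxd1, SE 0.52) to 0.32 (Hoxc5, SE 0.32), with a median of 0.00089, against -0.0026 for all genes. Without HIL6 library 1 the value for Hoxd1 was 0.040 (SE 0.29). Of these genes 8 were above 0, against 48.9% of all genes. For the 9 TALE genes the median was -0.093, and 6 were below 0, against 51.1% of all genes.

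Intervals show how far a change could have gone unseen. Hoxb5 stood at 11.6 FPKM ± 5.97 (SD, n = 4) in the GFP and 11.7 ± 4.80 (n = 5) in the HIL6 group, with a log2 fold change of 0.19 and a 95% interval of -0.89 to 1.27. For Hoxb3 the means were 16.8 FPKM ± 2.45 and 14.7 ± 1.63, and the interval was -0.37 to 0.068. Meis2, with 94.8 FPKM ± 8.65 and 89.6 ± 6.65, had an interval of -0.25 to 0.050. By contrast, the interval was -1.68 to 0.64 for Hoxd1, -0.88 to 0.21 for Hoxd3 and -1.35 to 0.90 for Hoxb6.

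Pknox2, also known as Prep2, was the member with the smallest p. It stood at 6.85, 6.18, 6.05 and 5.10 FPKM in GFP libraries 1 to 4 and at 4.30, 4.67, 5.03, 4.55 and 5.14 FPKM in HIL6 libraries 1 to 5. All HIL6 libraries but library 5 were below all GFP libraries. The log2 fold change was -0.31 ± 0.092 (SE), with an unadjusted p = 0.0081 and an adjusted p = 0.999 by limma, so it did not pass. Pbx4 came next, at 7.73, 7.60, 7.98 and 6.33 FPKM in the GFP and 7.59, 7.83, 6.39, 3.58 and 4.46 FPKM in the HIL6 libraries. Its low values lay in HIL6 libraries 4 and 5, both of batch 2. Meis3 stood at 28.6, 26.7, 24.9 and 19.9 FPKM in the GFP and at 21.5, 23.4, 24.8, 18.1 and 21.6 FPKM in the HIL6 libraries, and its lowest pair of values was in batch 2. The log2 fold changes were -0.25 ± 0.11 (SE) for Pbx4 and -0.14 ± 0.076 for Meis3. No member had groups that did not overlap, against 0.53% of all genes with HIL6 higher and 0.229% with HIL6 lower.

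**Figure D5:**
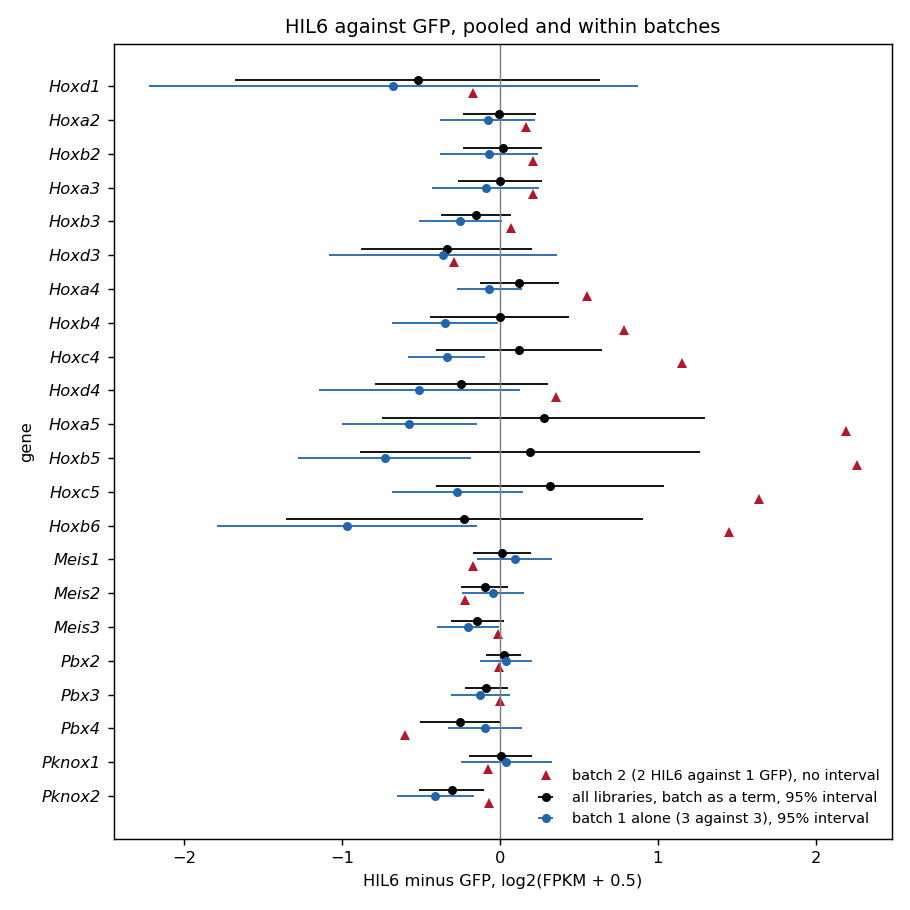
HIL6 minus GFP on the log2(FPKM + 0.5) scale for 22 tested members, with batch as a term (black, 95% interval), within batch 1 (blue, 95% interval) and within batch 2 (red triangles, no interval). Pooled intervals include 0 except that of Pknox2, all Hox genes drawn lie below 0 within batch 1, and the genes of group 5 lie at 1.64 to 2.26 within batch 2.

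Within batch 1, where 3 GFP and 3 HIL6 libraries could be compared, the Hox genes lay to one side. All 15 had a log2 fold change below 0, with a median of -0.34, against 49.5% of all genes below 0. None passed the adjusted threshold by limma (0% of 13989 genes did, and the smallest adjusted p among the members was 0.9995). At an unadjusted p under 0.05, 5 Hox genes and 2 TALE genes were lower in HIL6, against 1.31% of all genes. They were Hoxb6 (-0.97 ± 0.36, SE), Hoxb5 (-0.73 ± 0.24), Hoxa5 (-0.57 ± 0.19), Hoxb4 (-0.35 ± 0.15), Hoxc4 (-0.34 ± 0.11), Pknox2 (-0.41 ± 0.11) and Meis3 (-0.20 ± 0.085). For Hoxa5, Hoxb4, Hoxb5, Hoxc4, Meis3 and Pknox2, the 3 HIL6 libraries were all below the 3 GFP libraries, against 2.84% of all genes. Genes of 1 cluster do not vary independently, so these counts are not separate results. Without HIL6 library 1, 13 of the 15 Hox genes were below 0 and the median was -0.15. Hoxa5 (-0.41 ± 0.17), Hoxb5 (-0.43 ± 0.13) and Pknox2 (-0.36 ± 0.12) then had an unadjusted p under 0.05. The caudal share in this batch was 24.1% ± 2.67 (n = 3) in the GFP and 18.6% ± 3.83 (n = 3) in the HIL6 libraries, and HIL6 library 3 (23.0%) lay above GFP libraries 1 and 2.

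Batch 2 went the other way for these genes. It held only GFP library 4 against HIL6 libraries 4 and 5, so no test was made. Both HIL6 libraries were above GFP library 4 for 11 of the 15 Hox genes, against 32.3% of all genes, and both were below it for Hoxd3. GFP library 4 was the lowest of all 9 libraries for 10 of the 15, so this count largely restates its low values. The median difference of the Hox genes on the log2 scale was 0.36, against -0.0084 for all genes. It was 2.26 for Hoxb5, 2.19 for Hoxa5, 1.64 for Hoxc5, 1.45 for Hoxb6 and 1.15 for Hoxc4. The caudal share was 8.03% in the GFP library against 35.3% and 22.9%. Hoxa5, Hoxb4, Hoxb5 and Hoxc4 were lower in all HIL6 libraries of batch 1 and higher in both of batch 2. For 5 of the 9 TALE genes both HIL6 libraries were below GFP library 4, against 35.8% of all genes, and for none were both above.

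The difference between batches was tested as an interaction of HIL6 with batch. No member passed by limma, against 0.0143% of all genes. All 15 Hox genes had an interaction above 0, with a median of 0.62 on the log2 scale, against 47.8% of all genes above 0, and 7 of them had an unadjusted p under 0.05, against 1.28% of all genes in this direction. The member with the smallest p was Hoxc4, at 1.49 ± 0.20 (SE) with an adjusted p = 0.14, followed by Hoxb5 at 2.99 ± 0.44 with an adjusted p = 0.20 and Hoxa5 at 2.77 ± 0.46 with an adjusted p = 0.27. Hoxc5, Hoxb4, Hoxa4 and Hoxb6 were the others of the 7. Genes of 1 cluster do not vary independently, so these counts are not separate results. Without HIL6 library 1, 2 of the 15 Hox genes had an interaction below 0 and the median was 0.57. Without HIL6 library 4, 1 of the 15 was below 0 and the median was 0.85. This comparison rests on GFP library 4, the single GFP library of batch 2, and could not be fitted without it. In the fits with no library left out, 7 of 7 tested cranial motor neuron genes were below 0 within batch 1 (median -1.57). The same 7 were above 0 in the interaction (median 4.22), and their part in the Hox values was not tested.

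Batch itself separated 3 TALE genes. Pbx4, Pbx2 and Meis3 were lower in batch 2 than in batch 1, against 22.5% of all genes called in either direction and 11.1% called lower, so 3 of 24 members is near the background. Pbx4 fell by 0.59 ± 0.12 (SE, adjusted p = 0.0108 by limma), Pbx2 fell by 0.25 ± 0.053 (adjusted p = 0.0115) and Meis3 fell by 0.30 ± 0.080 (adjusted p = 0.0278) on the log2 scale. Pbx2 stood at 24.2 to 26.7 FPKM in the 6 libraries of batch 1 and at 21.1, 21.6 and 20.4 FPKM in batch 2, and Pbx4 at 6.39 to 7.98 FPKM in batch 1 and at 6.33, 3.58 and 4.46 FPKM in batch 2. These 2 genes did not overlap between the batches, against 13.4% of all genes lower in batch 2. No Hox gene passed, and the smallest adjusted p among them was 0.14 (Hoxa2 and Hoxb2). Without GFP library 4 the adjusted p was 0.056 for Pbx4, 0.088 for Pbx2 and 0.21 for Meis3, so the calls were lost, and 29 of all genes were then called. The log2 fold changes were then -0.78 for Pbx4, -0.27 for Pbx2 and -0.23 for Meis3.

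Genes that act above or beside the Hox genes were followed as lists. No gene of these lists passed in the comparison of HIL6 with GFP. Over all genes, 48.9% were above 0 in that comparison, and the median was -0.0026. Of 15 tested genes of retinoic acid synthesis and signalling, the pathway that sets Hox expression in the embryonic hindbrain, 12 were above 0 with a median of 0.086. Rarb, a receptor that is itself a target of retinoic acid, stood at 0.697 FPKM ± 0.276 (n = 4) in the GFP and 1.19 ± 0.218 (n = 5) in the HIL6 group (log2 fold change 0.46 ± 0.15 SE, adjusted p = 0.999 by limma). Dhrs3, a retinaldehyde reductase, stood at 2.69 ± 0.527 and 3.55 ± 0.459 FPKM (0.37 ± 0.13, adjusted p = 0.999). The 24 genes of the trithorax and polycomb complexes, which maintain Hox expression and silencing, had a median of -0.014, with Phc2 at 35.1 ± 2.53 and 37.1 ± 4.07 FPKM and Pcgf2 at 6.34 ± 1.04 and 5.45 ± 0.683 FPKM. Of 8 tested other TALE genes, 5 were above 0, among them Irx1 (2.47 ± 0.933 and 3.21 ± 1.59 FPKM) and Tgif1 (0.902 ± 0.119 and 1.08 ± 0.151 FPKM). Of 3 tested factors of hindbrain segmentation 1 was above 0, and Gbx2 stood at 2.18 ± 0.690 and 1.97 ± 0.240 FPKM.

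Between the batches these lists had members that passed. In the retinoic acid list 3 of 15 genes were lower in batch 2 and none higher, namely the receptor genes Rxrb (-0.40 ± 0.066, adjusted p = 0.0060 by limma), Rarg (-0.56 ± 0.13) and Rara (-0.44 ± 0.13). In the trithorax and polycomb list 8 of 24 were lower and 1 was higher, with the largest fall in Ring1 (-0.61 ± 0.066, adjusted p = 0.0028), a ubiquitin ligase of a polycomb complex, and the rise in Ash1l (0.43 ± 0.10), a trithorax methyltransferase. Of the other TALE genes, Irx5 (-0.43 ± 0.099) and Irx1 (-0.78 ± 0.21) were lower, and no factor of hindbrain segmentation passed. Over all genes 22.5% were called and 11.1% called lower, and the median was -0.0031. Without GFP library 4, 29 of all genes were called.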

How the data were processed

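Per the labels' protocols, stabilised punches gave column-purified RNA, and a stranded mRNA kit gave the libraries. kallisto, DESeq2 and the genome build mm10 are named, without roles, per the submitters' processing notes; no version, annotation or library scaling is given in the sources used here. FPKM values were deposited by the authors, a column for each library, none pooled. kallisto divides shared fragments by likelihood, so a value of 0 can be a failed estimate.

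Computed here were log2(FPKM + 0.5), a filter at a mean of 0.5 FPKM (13958 of 17187 genes), and limma 3.58.1 (R 4.3.3), whose model held group and batch, a trended prior variance and 6 residual degrees of freedom. Its two-sided p-values were adjusted by Benjamini-Hochberg over all tested genes, with a threshold of 0.05. Fold changes on this scale understate those of low genes. Batch and the interaction were tested likewise, and batch 1 alone was fitted separately. Group means ± SD in FPKM ignore batch. The procedure was tested on simulated data. Depth came from whole-number steps of low values of genes with 1 transcript, with a step and offset chosen per library to give the highest share of whole values. It is a relative measure, and no count test was run. Gene symbols were matched to GENCODE M21 (16429 of 17187), and promoter windows are from RefSeq.

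Named were all TALE members, the highest member of each Hox paralogue group, members past a threshold, those with the 5 smallest p or 5 largest ranges, 2 genes with the smallest p of each other list, and Chat, Tph2, Slc17a7, En1, En2 and Otx2; some genes the rule takes are not reported here, and other members are named after their values were seen. The members and lists were chosen with earlier results of these data known. Libraries of the same number had correlated deviations from their group means (r = 0.13, 0.14, 0.27 and 0.46 for numbers 1 to 4), where number 4 is batch 2 in both groups; within batch 1 r was 0.019, -0.11 and 0.27. The labels give no shared animal or day. Alternatives were other pseudocounts and filters, quantile scaling, array weights, a replicate block, batch 1 alone, other bounds of the caudal share, and each library left out. Added after seeing the data were the fits without GFP library 4 and HIL6 library 1 together, the alternatives of the interaction and batch 1 fits, the ranges without single libraries and the caudal share within batches.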

Additional observations from a re-analysis of the deposited data

Results flagged for a closer look

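Among the 4 GFP or the 5 HIL6 libraries, a single library stood far from the others, by Dixon's ratio at the 95% level, for 4 genes. Hoxa4 was low in GFP library 4 (6.21 FPKM, with 9.27 to 9.70 FPKM in the other GFP libraries). Genes beyond group 5 were high in HIL6 library 4: Hoxb6 at 2.49 FPKM (0.155 to 0.745 in the other HIL6 libraries), Hoxa6 at 0.890 FPKM (0.0845 to 0.298) and Hoxb7 at 0.423 FPKM (0 to 0.0510). The Hoxa6 value rests on 29 fragments. There were 72 groups examined, and chance would mark about 1 in 20 of them if they were independent. The genes do not vary independently, and Hoxb6, Hoxa6 and Hoxb7 were flagged in the same library. The count of 4 can therefore not be set against chance.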

How the results depend on the processing

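No member passed in the comparison of HIL6 with GFP under any alternative run, and the median log2 fold change of the Hox genes stayed within the residual spread of the libraries except in batch 1 alone and without GFP library 4, where it was -0.34 in both. The TALE median was -0.043 in batch 1 alone and -0.048 without GFP library 4 and HIL6 library 1, a pair left out after seeing the data. With the replicate block (libraries 1 to 4 of each group) 0 members were called, 3 had an unadjusted p under 0.05, and the medians were 0.0033 for Hox and -0.079 for TALE genes, so the block changed no call. Array weights called 9 of all genes and no member in that comparison. For batch, array weights called 5 members and 5336 genes, against 3 members and 3138 genes as reported, 0 members and 29 genes without GFP library 4, 958 genes without HIL6 library 4, and 0 members and 4 genes without GFP library 4 and HIL6 library 1.

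The difference in caudal share, 2.72 percentage points (HIL6 minus GFP), was -5.47 in batch 1 and 21.0 in batch 2. Single genes changed sign in the comparison of HIL6 with GFP. In batch 1 alone and without GFP library 4 and HIL6 library 1, respectively, the log2 fold change was -0.57 and -0.41 for Hoxa5, -0.73 and -0.43 for Hoxb5, and -0.34 and -0.27 for Hoxc4. Without GFP library 4, batch 2 holds no GFP library, so both of these fits take the difference from batch 1. They are not separate results. Hoxb4 stood at 0.0056 with a pseudocount of 0.1 and at 0.33 with array weights, and Hoxb6 at 0.54 with array weights. Array weights also gave 1.13 for Hoxa5 (0.28 as reported), 1.09 for Hoxb5 (0.19) and 0.57 for Hoxc4 (0.12), with adjusted p by limma of 0.37, 0.38 and 0.36. The cause was not tested.

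With each library left out in turn, the log2 fold change ran from -0.57 to 0.52 for Hoxa5, -0.35 to 0.14 for Hoxb4, -0.73 to 0.53 for Hoxb5, -0.97 to 0.11 for Hoxb6 and -0.34 to 0.24 for Hoxc4. The Hox median ran from -0.34 to 0.071, the TALE median from -0.12 to -0.043, the caudal share difference from -1.30 to 5.08 points, and the members called for batch from 0 to 3. The lowest Hox values are those without GFP library 4, which leaves no GFP library in batch 2. Depth limits the genes of groups 6 to 13, where a level can rest on fewer than 10 fragments. In batch 2, which held 1 GFP library, that library and the treatment cannot be told apart.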

Other observations

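Some marker lists that took no part in the comparisons of position genes differed between libraries. Pituitary hormone genes summed to 78.9 FPKM in GFP library 1 and 32.0 FPKM in HIL6 library 4 and to 0.390 to 7.57 FPKM in the other libraries. Gh, growth hormone, stood at 40.2 FPKM in GFP library 1 and 18.5 FPKM in HIL6 library 4 and was listed at 0 in GFP libraries 3 and 4 and HIL6 libraries 3 and 5. Prl stood at 9.41 FPKM ± 17.2 (SD, n = 4) in the GFP and 2.58 ± 4.73 (n = 5) in the HIL6 group. Leptomeningeal genes summed to 43.4 FPKM in GFP library 3 and 38.0 FPKM in HIL6 library 3, against 14.5 to 25.5 FPKM in the others, and among them Dcn, a matrix proteoglycan, stood at 15.1 ± 5.62 and 13.3 ± 4.65 FPKM and Col1a1 at 1.29 ± 0.433 and 1.33 ± 0.704 FPKM.

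Microglial genes, 6 of 6 above 0, summed to 89.6 to 105.2 FPKM in the GFP and 107.4 to 134.5 FPKM in the HIL6 libraries, without overlap. No microglial gene passed by limma, and no test was made of this sum over chosen genes. Of all genes taken singly, 0.53% did not overlap with HIL6 higher. Cx3cr1, the fractalkine receptor, stood at 8.66 FPKM ± 0.183 (n = 4) and 11.4 ± 0.531 (n = 5), with an adjusted p = 0.18 by limma, and P2ry12, a purine receptor of resting microglia, at 6.66 ± 1.03 and 9.87 ± 2.20 FPKM, with an adjusted p = 0.53. Of the 7 oligodendrocyte genes 7 were above 0, with Cldn11 at 217 ± 50.7 and 271 ± 34.6 FPKM and Mog at 173 ± 19.3 and 189 ± 27.0 FPKM. Of the 7 endothelial genes 6 were below 0, with Cdh5 at 5.35 ± 0.465 and 4.83 ± 0.236 FPKM and Kdr at 2.34 ± 0.536 and 2.21 ± 0.297 FPKM. None of these genes passed, and of all genes 48.9% were above 0 and 51.1% below 0.

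In the lists of neuron groups, all 8 serotonergic genes were below 0 in HIL6 against GFP, with Fev, the factor that defines them, at 7.14 ± 2.49 and 5.04 ± 1.71 FPKM and Gata3 at 6.98 ± 1.72 and 5.83 ± 1.39 FPKM. Of 7 cranial motor neuron genes 6 were below 0, with Slc10a4 at 9.29 ± 2.55 and 6.39 ± 2.75 FPKM and Prph at 24.0 ± 8.57 and 16.7 ± 6.57 FPKM. Of 6 cerebellar and precerebellar genes 5 were above 0, with Zic1 at 3.93 ± 2.34 and 7.58 ± 5.01 FPKM and Zic2 at 2.69 ± 0.988 and 4.25 ± 2.41 FPKM. HIL6 library 1 held the highest sum of this list (129 FPKM, with 25.4 to 47.3 in the other HIL6 libraries). It also held the lowest sum of the serotonergic list (55.1 FPKM, with 100.7 to 151.5 in the other HIL6 libraries). In the rostral list Dmbx1 stood at 0.967 ± 0.519 and 1.25 ± 0.321 FPKM and Neurod6 at 0.795 ± 0.455 and 1.42 ± 1.29 FPKM, the latter with 3.70 FPKM in HIL6 library 1 and 0.611 to 0.984 FPKM in the other HIL6 libraries. No gene of these lists passed by limma. Over all genes, 51.1% were below 0 and 48.9% above 0. Irx2, a TALE factor named after its values were seen, stood at 27.9 FPKM in HIL6 library 1 and 5.41 to 11.6 FPKM in the others.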
